A study of Mus musculus with 6 samples.

Results

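The genes described here are 10 transcripts known to be switched on by the transcription factor p53, namely Mdm2, Zmat3, Phlda3, Ccng1, Trp53inp1, Bbc3, Bax, Aen, Eda2r and Gdf15. They were taken by name, with each identifier matched to its symbol, from tables of 51826 genes. All 10 passed the filter on low counts, as did 14652 genes in all. RNA was sequenced from 6 cultures of MEFs (mouse embryonic fibroblasts, the connective-tissue cells that grow out of minced embryos), all of strain background C57BL/6 and between passages 2 and 5. There were 3 Het cultures (Lztr1 +/-, numbered 11, 15 and 18) and 3 WT cultures (Lztr1 +/+, numbered 10, 12 and 16), and the labels name no agent for either. LZTR1 is the protein by which a CUL3 ubiquitin ligase recognises RAS-family GTPases, and the comparison addresses which transcripts differ when 1 allele of its gene is mutant. How the mutant allele was made is not given by the labels. They also do not tie cultures to separate embryos, so the p-values reflect the spread among 3 cultures a group, part of which may be technical.

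p53 is held at a low level in unstressed cells because MDM2 marks it for destruction. When DNA damage, oncogene activity or culture stress stabilises it, p53 binds response elements made of a pair of half-sites and raises transcription of genes for cell-cycle arrest, apoptosis, repair and its own inhibition. Primary fibroblasts are a standard system for this response, since growth in culture itself can engage p53.

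Short DNA stretches show which of the 10 genes carry a p53-like element next to their start. RefSeq promoter windows on build GRCm38.p6, from 250 bases before to 50 bases after a start site, were found for 8 of the 10 genes. The p53 response element (20 bases, read on either strand since it is its own reverse complement, with no spacer, the C and G of each half-site core required and up to 3 mismatches elsewhere) matched 3 of these 8 genes. It matched 441 of 27025 genes with a window, or 1.63%. The matches are shown in capitals with 5 flanking bases on each side, 5′ to 3′ on the gene's own strand.
Ccng1 (chr11:40755462-40755481, minus strand, 195 to 176 bases before the start, mismatches 1): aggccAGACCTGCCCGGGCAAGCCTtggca
Bbc3 (chr7:16309486-16309505, plus strand, 97 to 78 bases before the most upstream start, mismatches 3): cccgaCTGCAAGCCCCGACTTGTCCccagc
Aen (chr7:78895937-78895956, plus strand, 121 to 102 bases before the downstream start, mismatches 3): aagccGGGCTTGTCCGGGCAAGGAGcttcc
A single exact half-site of 10 bases, which 8.36% of 32851 windows hold, stood in the windows of Mdm2 and Bax, again in capitals with 5 flanking bases.
Mdm2 (chr10:117710935-117710944, minus strand): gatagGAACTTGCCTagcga
Bax (chr7:45467090-45467099, minus strand): atcccAGGCAAGCTTtgaac
The windows of Phlda3, Eda2r and Gdf15 held neither form, which says only that these letters are not in these windows. Elements inside introns, where that of Mdm2 is known to lie, were not searched. A match is a description of sequence and not of binding.

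Library totals ran from 11025286 to 21885101 expected counts (estimated reads per gene). The smallest count behind any value of the 10 genes was 89, for Gdf15. Genes in the other lists below went lower, for example to 23 counts for Trp63 and 6 for Hrk. Lztr1 checked the labels, at 45.9, 45.1 and 43.8 CPM (counts scaled for library size and composition) in Het cultures 11, 15 and 18, against 93.9, 94.1 and 83.2 CPM in WT cultures 10, 12 and 16. Its log2 difference was -1.01 with an adjusted p of 0.00457 (edgeR, quasi-likelihood F test, Benjamini-Hochberg over all genes tested). All 9 fibroblast markers were expressed, with a summed level of 24945 to 27729 CPM in Het and 25002 to 31177 CPM in WT cultures. Y-linked genes were detected in Het cultures 15 and 18 and WT culture 12 and were near 0 in the others, so sex is unevenly spread over the genotypes. WT culture 16 stood apart from WT cultures 10 and 12 in many of the genes below, so results are given with and without it. It was singled out because of these same values, so the fits without it are descriptions and not separate tests of genotype. Cultures 10 to 12 and 15 to 18 form runs of numbers, and cultures 11 and 16 were registered later than the rest. The labels name neither as a batch.

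Per unit of transcript length the 10 genes covered a wide range of levels. In TPM (RSEM's abundance, scaled for gene length), Bax averaged 409 ± 29.8 TPM in Het and 391 ± 58.1 TPM in WT cultures (SD, n = 3 each, as for all means below). Ccng1 averaged 308 ± 7.74 TPM in Het and 251 ± 34.0 TPM in WT cultures, and Phlda3 averaged 267 ± 9.67 and 259 ± 24.8 TPM in the same groups. Mdm2 (140 ± 5.92 TPM in Het, 109 ± 24.0 in WT) and Aen (122 ± 5.99 in Het, 113 ± 14.7 in WT) formed a middle level. Eda2r, Zmat3, Trp53inp1 and Bbc3 averaged between 21.1 and 36.7 TPM in either group, and Gdf15 was lowest at 14.0 ± 0.568 TPM in Het and 13.6 ± 2.80 TPM in WT cultures. In WT cultures Phlda3 and Ccng1 did not differ beyond their spread, nor did Aen and Mdm2, nor the neighbours Trp53inp1, Zmat3, Eda2r and Bbc3.

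None of the 10 genes passed the test between the genotypes over all 6 cultures. By edgeR 0 of 10 had an adjusted p under 0.05, where 0.00683% of all genes did (Lztr1 alone). DESeq2, which gave Gdf15 no adjusted p, called 0 of the others, where it called 1.33% of genes, and limma on TPM called 0 of all genes. By edgeR 3 of the 10 had an unadjusted p under 0.05. Ccng1 and Eda2r did so on the higher side, where 5.56% of all genes did, and Bbc3 on the lower side, where 6.65% did. The mean was higher in Het cultures for 8 of the 10, against 49.6% of all genes. Their median log2 difference was 0.11, with a range from -0.25 for Bbc3 to 0.34 for Mdm2. Het cultures lay wholly above WT cultures in Ccng1 and Eda2r, as in 7.75% of all genes, and wholly below them in Bbc3, as in 9.97%.

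**Figure D1:**
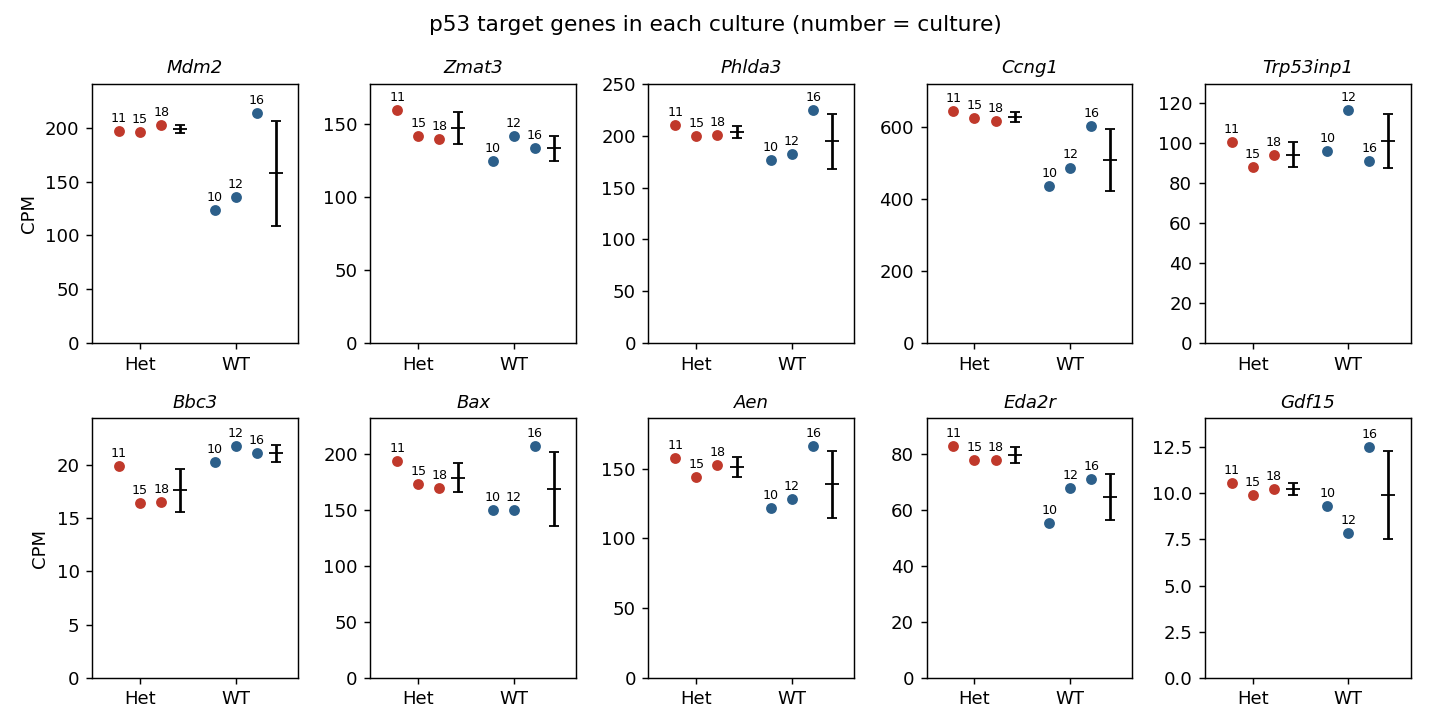
CPM of each of the 10 p53 target genes in the 3 Het cultures (red) and 3 WT cultures (blue), with the culture number above each point and the group mean ± SD in black. In Mdm2 the Het cultures sit between 196 and 203 CPM, WT cultures 10 and 12 at 123 and 136 CPM, and WT culture 16 at 214 CPM.

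Mdm2, Phlda3 and Zmat3 encode proteins that act in feedback on p53 or restrain growth signalling. Mdm2, the ubiquitin ligase that targets p53 for degradation (ENSMUSG00000020184.15, chromosome 10 from 117688875 to 117710758 in mm10), measured 197, 196 and 203 CPM in Het cultures 11, 15 and 18, against 123, 136 and 214 CPM in WT cultures 10, 12 and 16. In CPM the Het cultures were nearly level, WT cultures 10 and 12 were well below them, and WT culture 16 was the highest of all. In TPM WT culture 16 (135.7) was level with Het culture 15 (135.6) and below Het cultures 11 and 18 (138.4 and 147.0). WT cultures 10 and 12 were again lowest, at 88.9 and 102.8 TPM. The log2 difference was 0.34 (SE 0.18, adjusted p = 0.484 by edgeR), since the WT cultures spanned 0.80 on the log2 scale and the Het cultures 0.05. Without WT culture 16 the difference was 0.62 (SE 0.057, adjusted p = 0.00434).

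Phlda3, whose protein competes with the kinase AKT for membrane lipids, had 210, 200 and 201 CPM in Het cultures 11, 15 and 18 and 177, 183 and 225 CPM in WT cultures 10, 12 and 16. WT culture 16 was again above every Het culture and WT cultures 10 and 12 below, so the groups overlapped, with a log2 difference of 0.06 (SE 0.092, adjusted p = 0.804). Zmat3, an RNA-binding zinc finger protein that acts in splicing, showed another order. It had 160, 142 and 140 CPM in Het cultures 11, 15 and 18 and 125, 142 and 133 CPM in WT cultures 10, 12 and 16. WT culture 16 lay between the other WT cultures here, and the log2 difference of 0.14 (SE 0.074, adjusted p = 0.468) was 0.15 without culture 16.

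Ccng1 and Trp53inp1 act around p53 itself. Ccng1, encoding cyclin G1, which brings the phosphatase PP2A to MDM2 (ENSMUSG00000020326.7, chromosome 11 from 40748552 to 40755311), was the most abundant in CPM. It had 645, 627 and 618 CPM in Het cultures 11, 15 and 18 and 436, 488 and 605 CPM in WT cultures 10, 12 and 16. The groups did not overlap, but WT culture 16 came close to the lowest Het culture. The log2 difference was 0.31 (SE 0.11, adjusted p = 0.356), and without WT culture 16 it was 0.45 (SE 0.059, adjusted p = 0.0101). Trp53inp1, a stress-induced nuclear protein that promotes p53 phosphorylation, had 100, 87.8 and 93.7 CPM in Het cultures 11, 15 and 18 and 95.9, 116 and 90.8 CPM in WT cultures 10, 12 and 16. WT culture 12 was highest and the other cultures were mixed, with a log2 difference of -0.10 (SE 0.097, adjusted p = 0.688). That sign rested on culture 12, and without it the value was 0.02.

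The apoptosis genes did not share a direction. Bbc3, encoding PUMA, a BH3-only protein that releases the brake on mitochondrial pore formation (ENSMUSG00000002083.13, chromosome 7 from 16308393 to 16318205), had 19.95, 16.4 and 16.5 CPM in Het cultures 11, 15 and 18. It had 20.3, 21.8 and 21.1 CPM in WT cultures 10, 12 and 16. All Het cultures were below all WT cultures, though culture 11 only just, and the log2 difference was -0.25 (SE 0.10, adjusted p = 0.391). In TPM the groups overlapped, at 24.95, 20.1 and 18.1 TPM in Het cultures 11, 15 and 18 against 27.8, 31.1 and 24.8 TPM in WT cultures 10, 12 and 16. The effective length that RSEM assigned to Bbc3 was 1361 bases in Het and 1243 bases in WT cultures, and with lengths as an offset the log2 difference was -0.37 (adjusted p = 0.387).

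Bax, the pore-forming effector of the mitochondrial pathway (ENSMUSG00000003873.11, chromosome 7 from 45461697 to 45466898), had 194, 173 and 170 CPM in Het cultures 11, 15 and 18. Its WT values were 149.9, 150.0 and 208 CPM in cultures 10, 12 and 16. WT culture 16 was the highest culture and WT cultures 10 and 12 the lowest, so the groups overlapped, with a log2 difference of 0.08 (SE 0.13, adjusted p = 0.816). Aen, a nuclease that aids DNA fragmentation in apoptosis, also had WT culture 16 highest and WT cultures 10 and 12 lowest. It measured 158, 144 and 153 CPM in Het cultures 11, 15 and 18 and 122, 128 and 167 CPM in WT cultures 10, 12 and 16. The log2 difference of Aen was 0.13 (SE 0.11, adjusted p = 0.668), and without WT culture 16 it was 0.28 (SE 0.056, adjusted p = 0.0343).

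Of the receptor and the ligand in the list, Eda2r, a TNF-family receptor for an ectodysplasin isoform, lies on chromosome X (ENSMUSG00000034457.10, from 97333840 to 97377216). It had 82.8, 77.6 and 77.8 CPM in Het cultures 11, 15 and 18 and 55.3, 67.7 and 70.8 CPM in WT cultures 10, 12 and 16. In TPM the WT values were 26.1, 32.6 and 29.4 in cultures 10, 12 and 16, so culture 12 was the highest of them. Every Het culture was above every WT culture, with a log2 difference of 0.30 (SE 0.092, adjusted p = 0.318). The difference was 0.20 among the cultures with Y-linked transcripts and 0.40 among those without, with 1 culture of a genotype in each, and without WT culture 16 it was 0.38 (adjusted p = 0.0489). Gdf15, a secreted stress cytokine of the TGF-beta family, had 10.6, 9.91 and 10.2 CPM in Het cultures 11, 15 and 18. It had 9.30, 7.87 and 12.5 CPM in WT cultures 10, 12 and 16. The Het cultures lay inside the WT range, and the log2 difference of 0.05 (SE 0.17, adjusted p = 0.930) became -0.08 without WT culture 12.

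**Figure D2:**
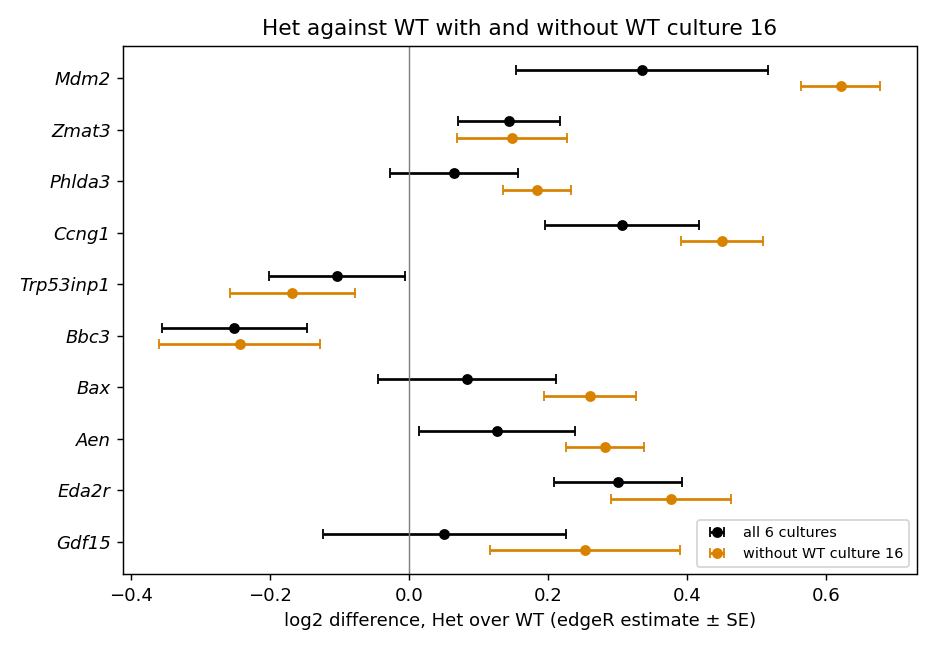
Log2 difference of Het over WT cultures for each gene (edgeR estimate, bars are the SE), with all 6 cultures (black) and without WT culture 16 (orange). Mdm2 moves to 0.62 when culture 16 is left out, while Zmat3 and Bbc3 keep nearly the same value.

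Leaving out WT culture 16 changed the calls. The edgeR test then called 4 of the 10 genes as higher in Het cultures, Mdm2, Ccng1, Aen and Eda2r, against 3.69% of all genes called as higher. It called 0 as lower, against 2.24%. Bax and Phlda3 were at adjusted p of 0.0625 and 0.0737 in this fit. WT cultures 10 and 12, which then form the WT group, share a run of culture numbers and a registration block, so genotype is partly mixed with both. Within the first registered block, where run and genotype coincide, 3 of the 10 were called as higher (Mdm2, Ccng1 and Aen), against 5.45% of all genes. Leaving out any other single culture gave 0 calls among the 10. In log2 CPM culture 16 was the highest WT culture in 7 of the 10 genes, against 39.9% of all genes. The same held for 18 of 30 other p53 targets and 8 of 11 BCL2-family genes described below. In those genes leaving it out raises the difference of Het over WT and narrows the WT range by construction.

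The size of the difference between genotypes was then compared between the runs of culture numbers. Within cultures 10 to 12 (Het 11 against WT 10 and 12) the median log2 CPM difference over the 10 genes was 0.32, with 8 higher in the Het culture, against 49.8% of all genes. Within cultures 15 to 18 (Het 15 and 18 against WT 16) the median was -0.13, with 7 lower in the Het cultures, against 51.9% of all genes. In the fit over all genes with an interaction of genotype and run, 1 of the 10 passed, against 0.328% of all genes. That gene was Bax, whose difference was 0.37 within cultures 10 to 12 and -0.27 within cultures 15 to 18. The interaction estimate, the second difference minus the first, was -0.65 (SE 0.082, adjusted p = 0.0416 by edgeR). Mdm2 came next at 0.61 and -0.10 within the runs, with an estimate of -0.71 (SE 0.11, adjusted p = 0.0628). The estimate was negative in 9 of the 10 genes, against 49.5% of all genes, and Trp53inp1 was the exception. Other lists described below leaned the same way, with 23 of 30 other p53 targets and 11 of 11 tested BCL2-family genes negative. Among 20 cell-cycle genes 4 were negative, and among 17 p53 regulators 10. Each run has a single culture of one genotype, Het 11 and WT 16, so the interaction cannot be told apart from what sets those 2 cultures apart. They are also the later-registered pair, so by construction the interaction is the same contrast as that pair against the other cultures, and a difference by run is not shown. The fit has 2 residual degrees of freedom. The adjusted p of Bax was 0.155 without WT culture 10 and 0.144 without WT culture 12.

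**Figure D3:**
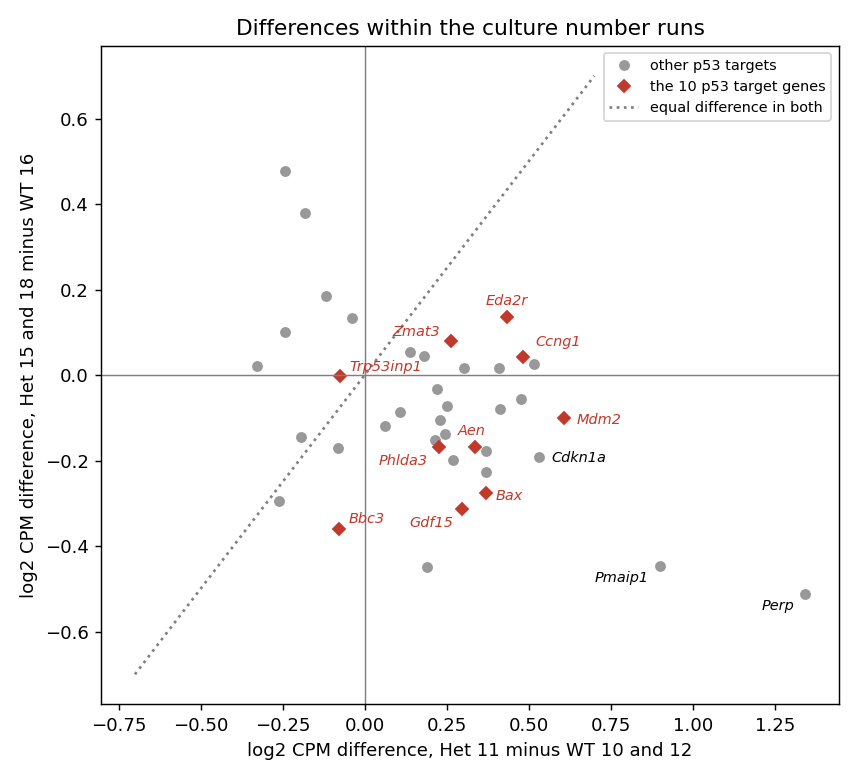
Log2 CPM difference of Het minus WT within cultures 10 to 12 (horizontal axis) and within cultures 15 to 18 (vertical axis) for the 10 genes (red diamonds) and 30 other p53 targets (grey circles). Most points lie right of 0 and below the dotted line of equal difference, with Bax at 0.37 and -0.27.

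The wider p53 programme was described with 30 other known targets, all of which passed the filter. None passed the test over all genes (0 by edgeR, and 0 by DESeq2, which gave 5 of them no adjusted p), and 24 of 30 had a higher mean in Het cultures, against 49.6% of all genes. An unadjusted p under 0.05 was reached by 2 of the 30 on the higher side and 2 on the lower side, near the shares of all genes (5.56% and 6.65%). Their median log2 difference was 0.08, against -0.0018 over all genes tested. Cdkn1a, encoding the cell-cycle inhibitor p21 and the best-known p53 target, had 437, 364 and 362 CPM in Het cultures 11, 15 and 18. It had 288, 318 and 414 CPM in WT cultures 10, 12 and 16. As in Mdm2, WT culture 16 reached the Het level, and the log2 difference was 0.19 (SE 0.14, adjusted p = 0.597). It was 0.36 without WT culture 16 (adjusted p = 0.0686) and 0.26 in the first registered block alone (adjusted p = 0.0424).

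Among the other targets with the smallest unadjusted p, the DNA polymerase gene Polk differed by 0.33 (SE 0.12, adjusted p = 0.359) and the endoplasmic reticulum gene Ei24 by 0.18 (SE 0.074, adjusted p = 0.401). Btg2, an antiproliferative cofactor, differed by 0.25 and Apaf1, the apoptosome scaffold, by 0.12. On the lower side were the stress-inducible regulators of mTORC1 Sesn1 (-0.34, SE 0.11, adjusted p = 0.321) and Ddit4 (-0.19, SE 0.072, adjusted p = 0.364), then the epoxide hydrolase gene Ephx1 (-0.17) and the damage-response gene Gadd45a (-0.17). Without WT culture 16 edgeR called 2 of the 30 as higher, Polk (0.49, adjusted p = 0.00974) and the kinase gene Plk2 (0.28, adjusted p = 0.0207), against 3.69% of all genes. In the first registered block alone it called 5 as higher, namely Cdkn1a, Pmaip1, Polk, Plk2 and Plk3, against 5.45% of all genes, and Sesn1 as lower, against 4.39%.

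The gene for p53 itself and its regulators gave little difference, apart from a kinase. Trp53 had 159, 165 and 141 CPM in Het cultures 11, 15 and 18 and 136, 133 and 157 CPM in WT cultures 10, 12 and 16, which overlapped (log2 difference 0.13, SE 0.083, adjusted p = 0.552). Mdm4, the inhibitory partner of MDM2, averaged 91.5 ± 2.54 CPM in Het and 95.7 ± 8.42 CPM in WT cultures. Cdkn2a, whose locus encodes the MDM2 inhibitor p19ARF beside p16, averaged 14.4 ± 5.49 CPM in Het and 14.9 ± 3.14 CPM in WT cultures. Reads of the 2 products were not separated in these gene totals.

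Hipk2, a kinase that can phosphorylate p53, had 54.3, 52.8 and 59.8 CPM in Het cultures 11, 15 and 18 and 35.0, 35.6 and 33.7 CPM in WT cultures 10, 12 and 16. Here WT culture 16 lay with the other WT cultures, and the log2 difference of 0.68 (SE 0.070) had an adjusted p of 0.0742 by edgeR and 1.75e-07 by DESeq2. Of 18 listed regulators 17 were tested, with 10 higher and 7 lower in Het cultures, against 49.6% of all genes higher. Their median log2 difference was 0.01, and edgeR called 0 over all 6 cultures, against 0.00683% of all genes. Cop1, a ubiquitin ligase for p53, differed by 0.14 (SE 0.053, adjusted p = 0.370), and the acetyltransferase gene Kat5 by -0.17 (SE 0.087, adjusted p = 0.475).

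BCL2-family genes other than Bax, Bbc3 and Pmaip1, which was counted with the other targets, showed no common direction of the mean. Of 11 tested, 5 were higher and 6 lower, against 49.6% of all genes higher, with a median log2 difference of -0.02. Het cultures lay wholly below WT cultures in 3 of the 11 (Bmf, Bad and Bcl2l11), against 9.97% of all genes. They lay wholly above in 0, against 7.75%. Bmf, a BH3-only gene like Bbc3, had 14.8, 14.3 and 12.5 CPM in Het cultures 11, 15 and 18 and 21.7, 21.1 and 19.9 CPM in WT cultures 10, 12 and 16. Its groups did not overlap, with a log2 difference of -0.59 (SE 0.099). The adjusted p of Bmf was 0.305 in edgeR and 0.0140 in DESeq2. Bad, another BH3-only gene, differed by -0.21 (SE 0.094, adjusted p = 0.419), and Bcl2l1, encoding the survival protein BCL-xL, by 0.15 (SE 0.11, adjusted p = 0.591). Without WT culture 16 edgeR called Bmf as lower (-0.62, adjusted p = 0.0212), against 2.24% of all genes. It called Bcl2l1 as higher (0.30, adjusted p = 0.0202), against 3.69%. Of 20 cell-cycle genes that p53 represses through p21 and the DREAM complex, 13 were higher and 7 lower in Het cultures. Of all genes 49.6% were higher. The median of the 20 was 0.03, and edgeR called 0 over all 6 cultures, against 0.00683% of all genes. In the first registered block alone it called 1 as higher, against 5.45%. Ccnb1 differed by 0.14 (SE 0.063, adjusted p = 0.436) and Ccnb2 by -0.15 (SE 0.10, adjusted p = 0.581).

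**Figure D4:**
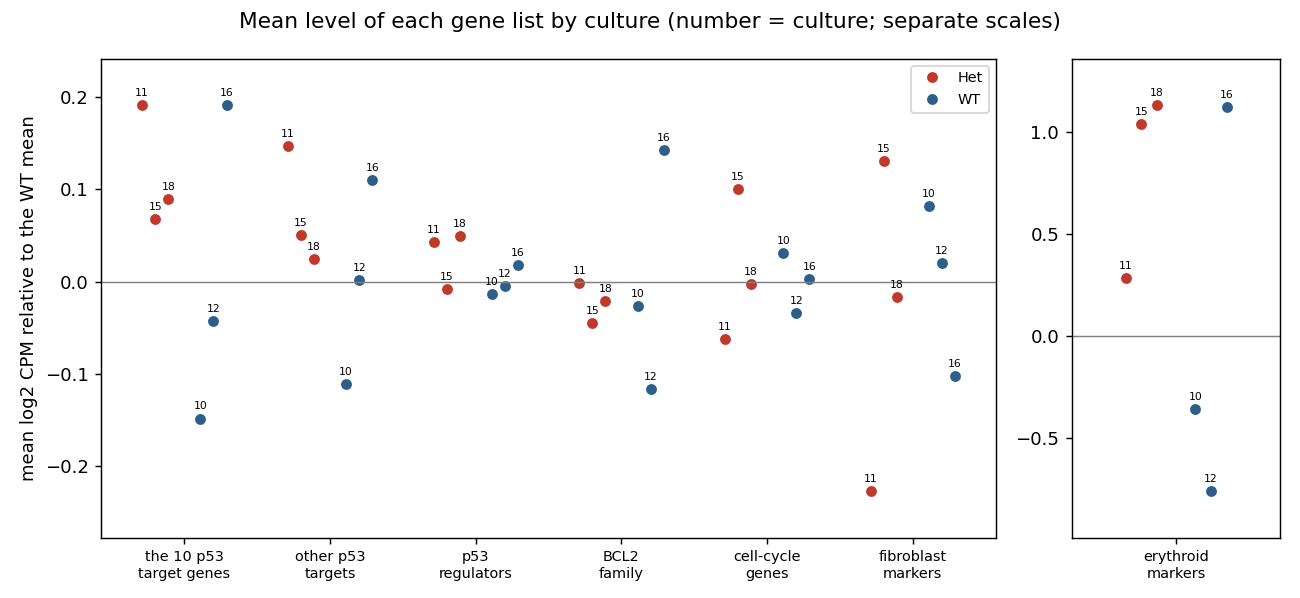
Mean log2 CPM of each gene list relative to the WT mean, by culture (red Het, blue WT, number above each point), with erythroid markers on a scale of their own. For the 10 p53 targets Het cultures 11, 15 and 18 stand at 0.19, 0.07 and 0.09, and WT cultures 10, 12 and 16 at -0.15, -0.04 and 0.19.

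Across cultures the mean of the 10 genes stood at 0.19, 0.07 and 0.09 in Het cultures 11, 15 and 18 relative to the WT mean, and at -0.15, -0.04 and 0.19 in WT cultures 10, 12 and 16. The other 30 targets gave 0.15, 0.05 and 0.02 in Het cultures 11, 15 and 18, and -0.11, 0.0013 and 0.11 in WT cultures 10, 12 and 16. Het 11 and WT 16, the later-registered pair, were the highest in both lists. Erythroid markers also had WT culture 16 on the Het side. Their summed level was 64.4, 114 and 128 CPM in Het cultures 11, 15 and 18 and 40.0, 30.6 and 118 CPM in WT cultures 10, 12 and 16. All 6 tested of 8 listed markers had a higher mean in Het cultures, against 49.6% of all genes. Within cultures 15 to 18 only 3 of the 6 were higher, and in the later-registered pair only 1. None of the 8 was at or below 3 counts in every culture. Summed fibroblast markers were lowest in Het 11 and WT 16, at 24945 and 25002 CPM. Without WT culture 16 edgeR called the collagen genes Col1a1, Col1a2 and Col3a1 as lower in Het cultures (adjusted p = 0.0190, 0.0489 and 0.00434), against 2.24% of all genes. It called Vim as higher (adjusted p = 0.0363), against 3.69%. In the same fit it called 3 of 6 erythroid and 1 of 5 endothelial markers as higher. The interaction test over all 6 cultures was passed by 3 of the 9 fibroblast markers and 1 of the 6 erythroid markers, against 0.328% of all genes. Endothelial markers summed to 30.5 to 38.4 CPM in Het and 17.7 to 30.3 CPM in WT cultures. The groups nearly touched, at 30.46 CPM in Het 11 and 30.30 CPM in WT 16. Their mean log2 level relative to the WT mean overlapped, at 0.016 in Het 11 against 0.054 in WT 10 and 0.25 in WT 16. Neural markers summed to 463 to 587 CPM in Het and 421 to 491 CPM in WT cultures. Of these, 5 of 5 tested were higher on average, against 49.6% of all genes. In the first registered block 2 of the 5 were higher, and in the later-registered pair 5 of the 5. The sums of macrophage markers (132 to 249 CPM in Het, 152 to 227 in WT), epithelial markers (84.9 to 218 in Het, 95.5 to 166 in WT) and skeletal muscle markers (491 to 647 in Het, 516 to 744 in WT) overlapped. The mean was higher in Het cultures for 6 of 7 macrophage, 4 of 5 endothelial and 4 of 6 epithelial markers. That held for 1 of 6 skeletal muscle and 4 of 9 fibroblast markers, against 49.6% of all genes. For macrophage markers it was 7 of 7 in the first registered block and 0 of 7 in the later-registered pair. The part of other cell types in the p53 target levels was not tested, and in bulk RNA fewer cells of a type cannot be told apart from less RNA per cell.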

How the data were processed

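Libraries were made from total RNA with an Illumina TruSeq kit, per the labels' protocols. The authors deposited 1 RSEM gene table per culture, and the submitters' processing notes list RSEM 1.3.1, DESeq2 and mm10. The aligner, annotation release and strand setting were not given in the sources used here. Expected counts, as deposited, are estimated reads per gene, of which 7.53% to 8.80% per library were not whole, and were rounded. The deposited TPM values, scaled by RSEM for length and library size, gave levels and 2 alternatives. The deposited FPKM values were not used. Symbols and mm10 positions came from GENCODE by identifier, for 51633 of 51826 genes, and overlapping genes were not resolved.

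Genes were filtered with filterByExpr, scaled by TMM and compared with edgeR 4.0.16 (quasi-likelihood, R 4.3.3), with calls at an adjusted p (Benjamini-Hochberg) under 0.05 over 14652 genes. DESeq2 1.42.0 and limma 3.58.1 were alternatives. Fits were tested on simulated data. SE values belong to the fitted log2 difference, and differences within runs use log2 CPM (prior count 2). These plain differences within runs, registered pairs and cultures of like Y-linked expression were added after the data were seen, unlike the fits with run, block or Y-linked terms. The members and lists were chosen with earlier results of these data known. All 10 members, Lztr1, Cdkn1a, Trp53, Mdm4, Cdkn2a and Hipk2 are always named, with up to 4 genes per list and direction by unadjusted p. Intervals and SE values cover these cultures alone.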

Additional observations from a re-analysis of the deposited data

Results flagged for a closer look

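Bax and Pmaip1 passed edgeR's test of the interaction of genotype with culture number run over all genes. Het 11 and WT 16 are each alone in their arm and are the later-registered pair, so the contrast is equally that pair against the rest, and a difference by run is not shown. For Bax the interaction estimate was -0.65 (SE 0.082, adjusted p = 0.0416), and the adjusted p was 0.155 without WT culture 10 and 0.144 without WT culture 12. For Pmaip1, encoding the BH3-only protein NOXA, it was -1.35 (SE 0.14, adjusted p = 0.0242), with a log2 CPM difference of 0.90 within cultures 10 to 12 and -0.45 within cultures 15 to 18. Pmaip1 had 97.6, 66.0 and 69.8 CPM in Het cultures 11, 15 and 18 and 47.9, 57.0 and 92.6 CPM in WT cultures 10, 12 and 16, so Het culture 11 and WT culture 16 were both high. Its adjusted p was 0.0591 without WT culture 10. With WT 10, WT 12, Het 15 or Het 18 left out, the estimate of Pmaip1 ran from -1.47 to -1.21. That of Bax ran from -0.66 to -0.64. Pmaip1 is named here because its value passed, and not by the rule for named genes.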

How the results depend on the processing

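Over 16 alternatives the 10 genes gave 159 tested values (Gdf15 had no adjusted p in DESeq2), of which 149 kept direction and side of the threshold, 7 passed the threshold and 3 changed sign. The 7 were the calls without WT culture 16 and in the first registered block. The sign changes were Trp53inp1 and Gdf15 without WT culture 12 (0.0153 and -0.0800, in ranges without single cultures from -0.17 to 0.0153 and from -0.0800 to 0.25) and Gdf15 with a term for the run of culture numbers (-0.0023). The cause was not tested. The number of the 10 genes called was 0, except 3 in the first registered block alone, and 0 to 4 when single cultures were left out. The count with a higher mean in Het cultures was 7 with the run as a term and 8 in the others, and their median ran from 0.03 to 0.26 without single cultures. Genes called in all were 1, against 112 with DESeq2, 32 with no low-count filter, 0 with the effective length offset and with limma at either TPM pseudocount, 1450 in the first block alone and 0 to 896 without single cultures. Lztr1 kept its direction but not its call with the length offset (-0.91) and with limma (-0.92 at a pseudocount of 1 and -0.94 at 0.1), and ran from -1.06 to -0.97 without single cultures, where only leaving out WT culture 16 kept the call. The interaction called 48 genes, and 5 to 786 when WT 10, WT 12, Het 15 or Het 18 was left out, which was added after seeing the data. No paired analysis was made because the labels pair no Het culture with a WT culture. With 3 cultures a group, a difference as small as the median of the 10 genes was below the median SE of 0.11.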
